A study of Ginkgo biloba with 2 samples.

Results

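miR164, miR394 and miR396 are microRNA (miRNA) families known in flowering plants as regulators of leaf growth and shape. They were examined in small RNA libraries from leaves of Ginkgo biloba, a gymnosperm tree with separate female and male plants. The families were chosen by name: 3 of the 723 known miRNA names in the deposited tables, and all 3 had reads in both libraries (where 530 names had female and 532 had male reads). One library came from mature leaves of female trees and 1 from mature leaves of male trees, all about 30 years old and grown under natural conditions. With 1 library per sex there was no replicate check, no test between the sexes was made, and all comparisons are between these 2 libraries. The labels do not state how many trees went into a library.

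A plant miRNA is cut by a Dicer-like enzyme from a hairpin precursor as a duplex of its 5′ and 3′ arms. One strand, usually starting with U, is loaded into an ARGONAUTE protein and directs the cleavage of transcripts to which it pairs almost fully. In flowering plants miR164 directs the cleavage of NAC transcription factor transcripts such as those of the CUC genes, which set organ boundaries and leaf margin serration. miR394 targets the F-box gene LCR, which acts in leaf shape and the shoot stem cell niche. miR396 targets the growth-regulating factors (GRFs), which keep leaf cells dividing. For miR394 and miR396 the strand usually taken as the mature miRNA lies on the 5′ arm.

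The tables gave 1 sequence per name and library, shown here because the relation between the 2 listed sequences decides what a comparison of levels compares. Each is written 5′ to 3′ with T for U, and capitals mark the seed (bases 2 to 8).
miR164, female: tGGAGAAGcagggcacgtgcg
miR164, male: tGGAGAAGcagggcacgtgcg
miR394, female: tTGGCATTctgtccacctcc
miR394, male: aGGTGGACggtatgccaagca
miR396, female: tTCCACAGctttcttgaacta
miR396, male: cTCAAGAAagctgtgggaaa
The female and the male sequence were identical for miR164, whereas those of miR394 and miR396 differed along their length and in the seed. How the 1 sequence was chosen, and whether the reads of a name cover it alone or both arms, is stated neither in the labels nor in the files.

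The library totals, worked out from the read count and level of the most abundant name, were 13193290 female and 12137619 male reads. By these totals 1 read was worth 0.0758 RPM (reads per 1000000 reads of its library) for female and 0.0824 RPM for male leaves. Together the 3 families took 16145 reads or 0.654% of the reads of known names in the female library (exact 95% interval 0.644 to 0.664%), against 37699 reads or 1.54% in the male one (1.53 to 1.56%). miR396 made up 73.6% of the family reads in female and 59.9% in male leaves, and miR164 made up 26.4% in female and 23.2% in male leaves. miR394 made up 0.0186% of them in female and 16.9% in male leaves. The order of levels was thus miR396, miR164 and miR394 in both libraries, with no overlap of the counting intervals. These sums, shares and levels are of names, because the listed sequences of miR394 and miR396 differed between the libraries. All intervals cover counting error only, because they rest on the reads of 1 library per sex and hold no variation between trees or libraries. Reads copied by PCR are not independent molecules, so the intervals may be too narrow even for that error.

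In female leaves miR164 had 4261 reads, 323 RPM (interval 313 to 333), and in male leaves 8749 reads, 721 RPM (706 to 736). It ranked at place 47 among the names of the female library and at place 31 among those of the male library. Its level was 2.23-fold higher in the male library (exact conditional interval of the read ratio 2.15 to 2.32), a log2 female over male ratio of -1.16. This is the one family of the 3 in which the same molecule was listed on both sides. Scaled by the median ratio of names, the log2 ratio was -0.93, within 2-fold.

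miR396 was the most abundant of the 3, at 901 RPM (884 to 917; 11881 reads) in female leaves and 1861 RPM (1837 to 1885; 22585 reads) in male leaves. Its rank was 24 among female and 17 among male names. Under this name male leaves had a 2.07-fold higher level (2.02 to 2.11; log2 -1.05). The difference was within 2-fold when scaled by the median ratio (log2 -0.82) or by the total of known names (log2 -0.94). The 2 values stand beside different listed sequences, so the ratio is one of names and not of 1 molecule.

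For miR394 the female library held 3 reads, 0.227 RPM (0.0469 to 0.665), and the male library 6365 reads, 524 RPM (512 to 537). It stood at rank 408 among the female names and at rank 38 among the male names. The ratio was 2306-fold in favour of the male library, with an interval of 789 to 11186 that is wide because of the 3 female reads. With 1 RPM added to both values the log2 female over male ratio was -8.74, against -11.17 without. The sequence listed beside the 3 female reads was not the one listed beside the male reads.

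**Figure D1:**
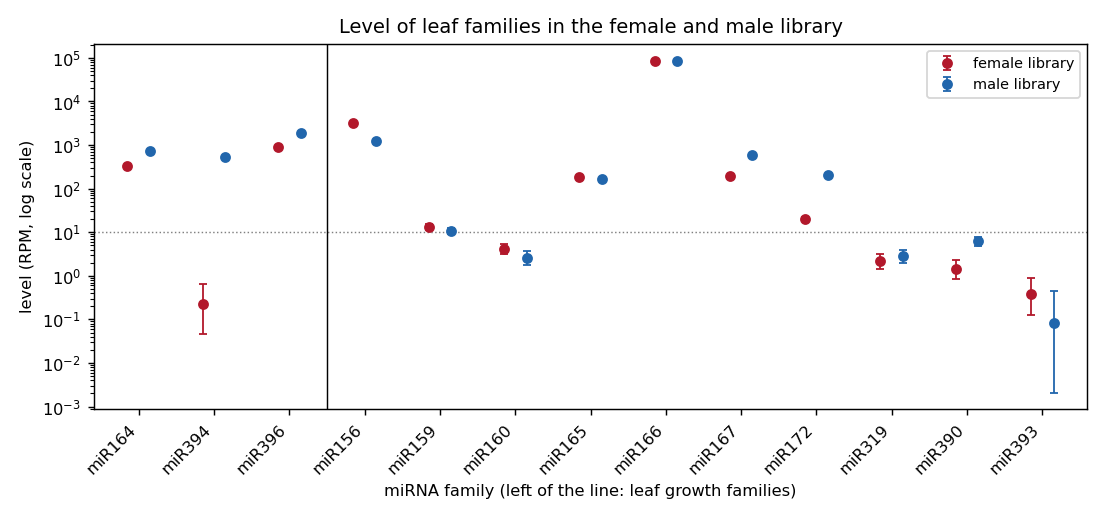
Levels in RPM on a log axis for the 3 leaf growth families (left of the vertical line) and 10 other leaf development families, with the female library left of the male library in each pair; bars are exact 95% counting intervals, 1 library per sex, and the dotted line is 10 RPM. miR164 and miR396 lie at 323 RPM or above on both sides, while miR394 stands at 0.227 RPM for female and 524 RPM for male leaves.

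All 3 families passed 2-fold towards male leaves by log2 of (female RPM + 1) over (male RPM + 1), with a median of -1.16. With median ratio scaling 1 of the 3, miR394, passed it. Over the 232 names that reached 10 RPM on either side, 29.3% passed 2-fold towards female leaves and 33.2% towards male leaves, and the median was -0.27. Further towards the male library than miR164 lay 71 of the 232 names, and further than miR396 lay 76. Further than miR394 lay 6, but miR394 reached 10 RPM through the male library alone, as did every name without female reads, so its place describes it and supports nothing.

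Names with different listed sequences spread more widely than names with the same one. Among 96 names with the same sequence in both libraries, 7.29% passed 2-fold towards female and 19.8% towards male leaves, and 16 of them lay further towards the male library than miR164. Among 73 names with reads in both libraries and different sequences, 37% passed 2-fold towards female and 39.7% towards male leaves. In that group 28 names lay further towards the male library than miR396 and 1 lay further than miR394. Here too miR394 reached 10 RPM through the male library alone, so its place describes it and supports nothing. By library totals, miR164 thus passed 2-fold in the group where fewer names did, and miR396 in the group where more did. Neither passed it with median ratio scaling, for which no group shares are given here.

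**Figure D2:**
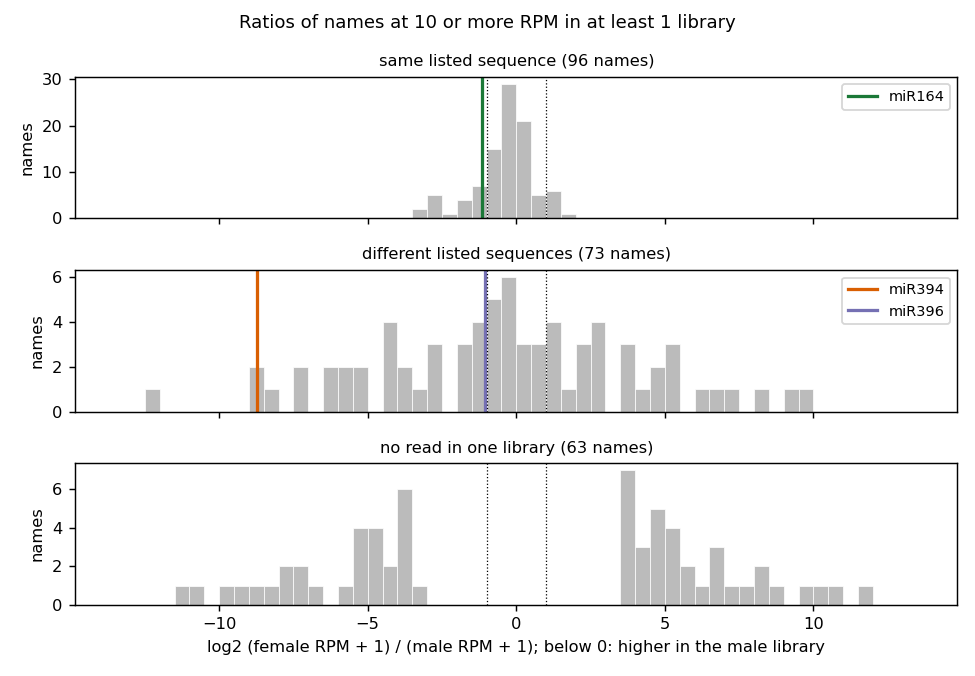
Number of names by log2 of (female RPM + 1) over (male RPM + 1), for the 232 names that reached 10 RPM on either side, split by whether the listed sequence was the same (96 names), different (73) or given in 1 library only (63); dotted lines mark 2-fold. miR164 (-1.16) and miR396 (-1.05) lie just past the line, and miR394 (-8.74) lies near the low end of its group.

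Other families that act in leaf development did not share one direction. Of 10 such families chosen with earlier results of these data known, 6 reached 10 RPM. Of these, 1 passed 2-fold towards female leaves, 2 towards male leaves and 3 did not pass it either way, and the median log2 ratio was 0.12. miR156, which targets SPL transcription factors, stood at 3144 RPM in female and 1259 RPM in male leaves. miR172, which targets AP2-like factors, stood at 20.2 RPM in female and 203 RPM in male leaves. miR167, which targets auxin response factors, had 199.9 RPM in female and 593 RPM in male leaves, but its values, like those of miR396, stand beside listed sequences that are near reverse complements. Within 2-fold lay miR159, a regulator of MYB factors, at 13.04 RPM in female and 10.7 RPM in male leaves. Also within 2-fold were miR165 and miR166, which restrain class III HD-ZIP factors of leaf polarity. They stood at 189 and 86581 RPM in female and at 164 and 84277 RPM in male leaves. The other 4 stayed below 10 RPM: miR160 had 55 female and 31 male reads, miR319 had 29 female and 34 male reads, miR390 had 19 female and 76 male reads, and miR393 had 5 female reads and 1 male read. miR319, which targets the TCP factors of leaf growth, was thus far below miR164 and miR396 in both libraries.

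The names nearest in level, by distance on log2 (RPM + 1) over the 2 libraries, were no relatives in sequence. For miR164 they were miR6140 (407 RPM in female and 542 RPM in male leaves), miR1521 (329 RPM female, 1109 RPM male) and miR5051 (308 RPM female, 444 RPM male). For miR396 they were miR4388 (1106 RPM in female and 1326 RPM in male leaves), miR894 (1325 RPM female, 2096 RPM male) and miR169 (1244 RPM female, 2589 RPM male). For miR394 they were miR6477, miR5163 and miR5231, which had 535, 454 and 725 RPM in the male library and no read in the female library. By a common rule, a count of 0 allows up to 3 reads at about 95% confidence. This puts the upper limit of their female level at 0.227 RPM. The limit is one-sided, unlike the intervals given above, and covers counting error only. The sequences listed for these 9 names were at least 10 edits (bases changed, added or removed) from that of their family.

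The female and the male sequence of miR396 were near reverse complements of each other. Strand relations were judged from the listed mature sequences alone, since no hairpin or genome was used here. The 2 sequences were 11 edits apart as written, but 6 edits separated the female sequence from the reverse complement of the male one, or 3 with the shorter sequence placed anywhere within the longer. A run of 15 bases matched the reverse complement exactly. Folded against each other with RNAduplex, they formed 17 base pairs in a row, 1 of them a G-U pair, at -28.5 kcal/mol. At the 3′ ends, 4 bases of the female and 2 bases of the male sequence were left unpaired, and the first base of the male sequence was unpaired too. Duplexes of plant miRNAs as cut by Dicer-like enzymes typically carry unpaired ends of 2 bases at the 3′ side.

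miR394 showed the same relation. Its female and male sequences were 12 edits apart as written and 7 edits apart when the male one was reverse complemented, or 4 with free placement. They formed 17 base pairs, 1 of them a G-U pair, at -28.6 kcal/mol. The duplex held 1 mismatch inside, at base 8 of the female and base 11 of the male sequence counted from the 5′ end. At the 3′ ends 2 female and 3 male bases stayed unpaired, and both 5′ ends were paired. miR164, with identical sequences, was 13 edits from its own reverse complement, and its listing gave the same sequence in both libraries.

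Other families of leaf development showed the same relation. Reads on both sides were found for 339 names, of which 188 (55.5%) were listed with different sequences, and 23 of these were nearer to each other as reverse complements than as written. In 8 of the 188 (4.26%), miR394 and miR396 among them, the distance to the reverse complement was 7 edits or fewer and below that as written. At least 17 base pairs formed in 5 of the 188 names, against a median of 8. Among these 5, miR5234 (17 pairs, -9.6 kcal/mol) and miR5237 (18 pairs, -8.3 kcal/mol) were nearer as written than as reverse complements. An energy of -28.5 kcal/mol or lower was reached by 2, miR394 and miR396 themselves, against a median of -6.05. The 8 names also held miR167 (6 edits to the reverse complement, 18 base pairs, -25.3 kcal/mol), miR160 (7 edits, 16 pairs, -24.7 kcal/mol) and miR393 (7 edits, 15 pairs, -19.8 kcal/mol). These are the 3 of the 10 other leaf development families whose listed sequences differed, so the relation is not particular to miR394 and miR396. The rest of the 8 names, outside that list, formed weaker duplexes. They were miR1023 (12 pairs, -10.6 kcal/mol), miR6267 (14 pairs, -9.4 kcal/mol) and miR902 (10 pairs, -8.4 kcal/mol). These counts use limits set by the 2 families and describe where they lie.

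**Figure D3:**
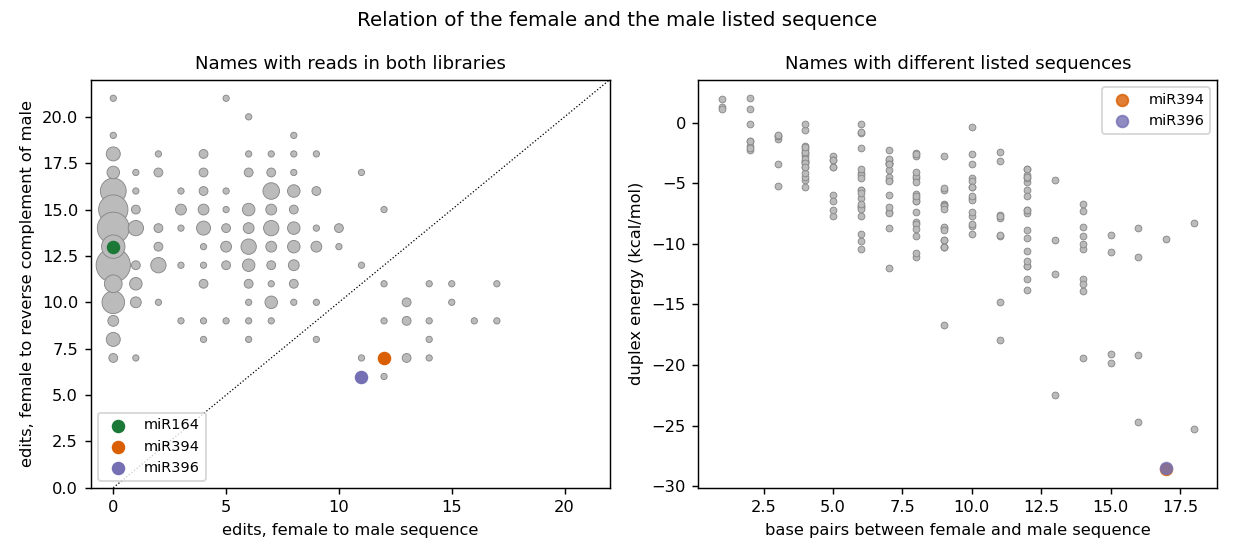
Left: edits between the female and male listed sequence (x) and between the female sequence and the reverse complement of the male one (y) for 339 names, with larger grey circles for more names and a dotted line of equal distance; right: base pairs and duplex energy in kcal/mol of the 2 sequences for the 188 names where they differ. miR394 and miR396 fall below the line at left and overlap at the lowest energies at right, with 17 base pairs each, while miR164 stands at 0 edits.

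The female sequences of all 3 families began with U, the usual first base of plant miRNAs, and the male ones of miR394 and miR396 did not. The female sequences had 21 (miR164), 20 (miR394) and 21 (miR396) bases. The male sequence of miR394 began with A and had 21 bases, and that of miR396 began with C and had 20 bases. Names starting with U carried 87.7% of the known reads of female and 89.8% of those of male leaves. A large part of this was the single name miR166, with 46.3% of the female and 41.8% of the male known reads. In the male library, names starting with A carried 2.97% and those starting with C 3.57% of the known reads. Counted by names instead of reads, 50.2% of female and 51.7% of male ones started with U. Among male names 31% started with A and 9.21% with C. G and C made up 66.7% of the miR164 sequence. They made up 55% of the female and 57.1% of the male miR394 sequence, and 38.1% of the female and 45% of the male miR396 sequence, where the median over names was 42.9% in both libraries.

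No other name shared a stretch of 16 or more bases with any of the listed sequences, on either strand, so no near-identical second name was seen among the listed sequences. One name had the seed of miR164: miR6204, with 1 male read of a 24-base sequence 11 edits away. Between the 3 families the listed sequences were 11 to 15 edits apart, with no shared stretch over 5 bases.

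The deposited target lists are predictions and not measurements, and their annotation fields are empty, so no target can be named as a NAC, F-box or GRF transcript. The lists are given by name, so whether the listed sequence was the one used for the prediction was not tested. The 3 families listed 20 distinct transcripts in all. miR164 listed 1 transcript in both libraries, a public nucleotide record and the same one. miR394 listed 3 transcripts in the female table, CL3550.Contig1, CL3550.Contig2 and CL3550.Contig3, which share 1 cluster prefix. It had no entry in the male table. Such gaps were common: 532 known names had male reads, and 340 known names had targets in the male table. Targets in the female table only were listed for 2 of the 8 near reverse complements, and for 43 of 180 other names with different sequences. miR396 listed 10 transcripts in the female and 13 in the male table. In the number of targets, miR396 ranked 63 of 380 names in the female and 45 of 340 in the male table, where the median name had 3 targets in both.

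Although its listed sequences are near reverse complements, miR396 had 5 predicted targets in common between the tables, 50% of the female and 38.5% of the male list. They were CL1548.Contig1, CL1548.Contig2, Unigene6079, Unigene13118 and Unigene33646. Listed for miR396 in the female table alone were the 3 contigs of cluster CL2311, Unigene17306 and Unigene25530. Listed for miR396 in the male table alone were 1 public record, CL3550.Contig1, CL3550.Contig2, the 2 contigs of cluster CL6144, Unigene9693, Unigene17305 and Unigene24332. Of the 5 names listed as near reverse complements with targets in both tables, miR396 was the one with any shared target. Among other names with different sequences, 35 of 84 with targets in both tables shared at least 1, and 11 had identical lists. All 110 names with the same sequence and any target had identical lists.

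The target lists of miR394 and miR396 met in 1 cluster. CL3550.Contig1 and CL3550.Contig2 were listed for miR394 in the female table and for miR396 in the male table. The sequences listed for miR394 in the female and miR396 in the male library were 15 edits apart, with no shared stretch over 4 bases. The 2 transcripts are 66.7% of the miR394 list and, with 2 of 13, a small part of the male miR396 list. Of all 3279 transcripts listed for known names, 335 (10.2%) were listed for 2 or more names. Among the 20 transcripts of the 3 families, 1 was also listed for another known name: Unigene25530, which miR2919 listed among its 91 female targets.

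Both miR396 lists came back, crossed between the libraries, in the tables of newly predicted miRNAs. The female predicted miRNA FLGB-m0143_3p listed exactly the 13 transcripts of the male miR396 list, and the male predicted miRNA MLGB-m0089_5p listed exactly the 10 transcripts of the female miR396 list. A second male predicted miRNA, MLGB-m0133_5p, listed 6 transcripts, all of them in the female miR396 list. The authors' arm labels in these names were 3p for the miR396 list of the male table and 5p for that of the female table. The sequences of these predicted miRNAs are not in the target tables, so they were not compared with miR396 directly.

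No other name with at least 2 targets matched a predicted list. Of 290 such known names in the female table, 1 (miR396) had a list identical to that of a male predicted miRNA and 0 to that of a female one. Of 268 in the male table, 1 (miR396) matched a female predicted list and 0 a male one. The level tables name predicted miRNAs in another way than the target tables, so no level was tied to FLGB-m0143_3p, MLGB-m0089_5p or MLGB-m0133_5p. No predicted miRNA listed the miR164 target or the contig CL3550.Contig3. FLGB-m0143_3p held 2 of the 3 miR394 targets, the same 2 contigs that the male miR396 list held.

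**Figure D4:**
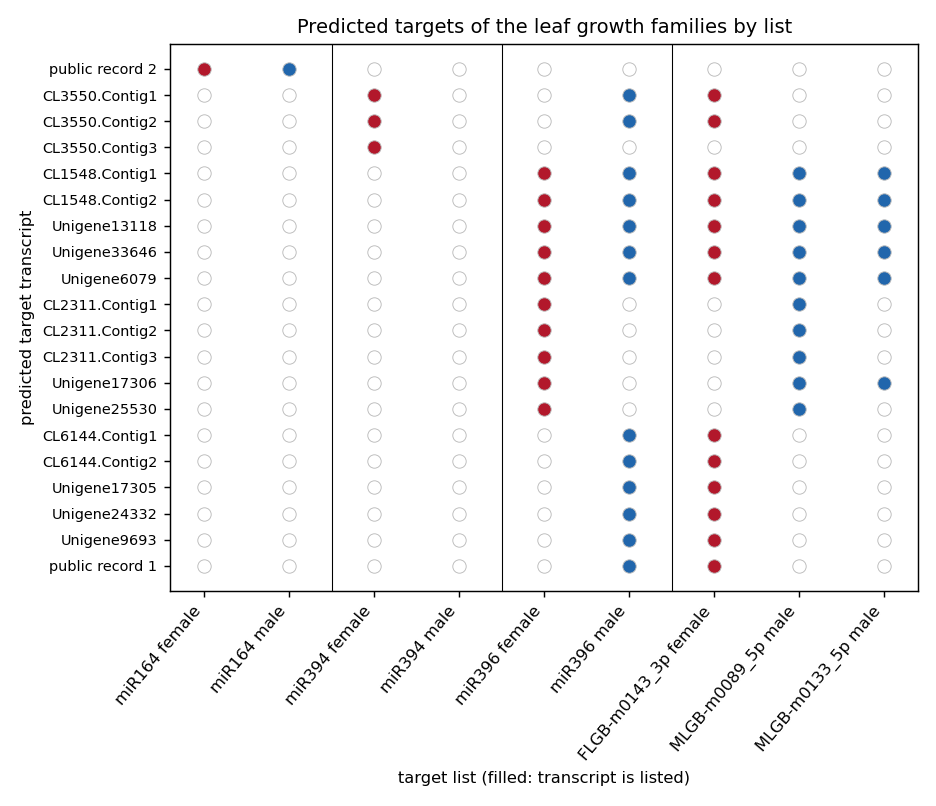
Predicted target transcripts (20 rows) in the target lists of the 3 families and of 3 predicted miRNAs (columns, red for the female and blue for the male table); a filled circle means that the transcript is listed. The columns of male miR396 and FLGB-m0143_3p are identical (13 transcripts), as are those of female miR396 and MLGB-m0089_5p (10 transcripts), and the male miR394 column is empty.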

How the data were processed

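Small RNA of 2 leaf libraries was analysed from 5 deposited files per library. The deposited level tables (named TPM by the authors) hold RPM: each known value equalled a whole read number over 1 library total to within 5e-05 RPM, and 100% of low values were whole reads to within 0.01 read. The authors' second table gave raw read counts and 1 sequence per name, as deposited. Target tables gave counts of predicted targets, as deposited by the authors. The labels and files name no aligner, miRNA database, target tool or genome build, and positions in the genome were not analysed here.

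Ratios carry exact 95% intervals (conditional binomial, scipy 1.17.1). Names that reached 10 RPM on either side were compared with a pseudocount of 1 RPM and a 2-fold threshold. Listed sequences were compared by edit distance, as written and reverse complemented, and with RNAduplex (ViennaRNA 2.7.2). Named besides the families were the 3 names nearest in level, names sharing 16 bases or the seed, names sharing targets, and a list of leaf development families. Families and lists were chosen with earlier results of these data known. Alternatives were other scalings, pseudocounts, minima, thresholds, distances and shortened identifiers. Ratio calls, count intervals and edit distances were tested on simulated data without variation between libraries. Duplex folding, target overlaps and median ratio scaling were not tested in this way.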

Additional observations from a re-analysis of the deposited data

How the results depend on the processing

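Each family stayed higher in the male library under every scaling and pseudocount tried. The log2 female over male ratio of miR164 was -0.93 with median ratio scaling and -1.05 with the total over known names, and that of miR396 was -0.82 and -0.94. That of miR394 was -8.74 with a pseudocount of 1 RPM and -5.71 with 10 RPM, by construction, since its female level lies below both. With median ratio scaling 1 of the 3 families, miR394, was at least 2-fold apart. This median ratio, taken over 117 names that reached 10 RPM on both sides, was -0.23 on the log2 scale.

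The strand relation kept its direction. Edits as written minus edits to the reverse complement came to -13 for miR164 and 5 for both miR394 and miR396. With the shorter sequence placed anywhere within the longer they were -11, 6 and 7, and with G-U pairs counted as matches -11, 6 and 5. With identifiers shortened to their cluster, miR396 had 4 shared targets. No paired analysis was possible because there is 1 library per sex. For miR394, 3 female reads limit the precision.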
